A study of Mus musculus with 8 samples.

Results

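The unfolded protein response is the program by which a cell adjusts the endoplasmic reticulum (ER) to its load of unfolded proteins. Sensors in the ER membrane (Ire1α, encoded by *Ern1*, PERK, encoded by *Eif2ak3*, and ATF6) signal through Xbp1, Atf4 and cleaved ATF6 to genes for chaperones, for amino acid supply and for the degradation of misfolded proteins. Ire1α acts by splicing *Xbp1* RNA and PERK acts by favouring translation of *Atf4* RNA, so the RNA level of either gene is not by itself a measure of how active its arm is. The Ire1α-Xbp1 arm is known to be used by conventional dendritic cells. A list of 35 genes of this response was described, chosen by gene symbol, and all 35 were found among the 24421 genes of the deposited count table. All 35 also had at least 0.5 CPM (counts scaled to a common library size) in at least 2 libraries, as did 12424 genes in total. The list was divided by role into 15 chaperones and cochaperones, 10 genes of the Atf4 and Ddit3 arm, and 10 sensor, degradation and translocation genes.

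The cells were Langerhans cell (LC)-like cells grown from the BM of C57BL6 mice with GM-CSF (20 ng/ml) and TGFβ1 (10 ng/ml) in medium with 10% FBS treated with charcoal, which lowers its content of RA, and the CD11c+ fraction was taken with magnetic beads. The libraries labelled WT 1 and WT 2 were compared with 2 libraries from ∆RaraCD11c mice (labelled RARa-/-), in which CD11c-Cre deletes a floxed exon of *Rara*, the gene of the retinoic acid receptor RARα. Separately, 2 further WT libraries, here Control 1 and Control 2, were compared with 2 WT libraries grown with all-trans retinoic acid (RA), so the comparisons shared no library. The labels give 1 nM RA and 3 to 5 days of culture, whereas the study's text gives a higher dose and 3 days. No age is given. Deletion by CD11c-Cre begins as cells turn on CD11c, so part of the collected cells may have kept *Rara*, and WT animals in the study included Cre and floxed carriers, which the sample labels do not tell apart. The study calls its samples independent without saying whether both libraries of a group stem from different mice or cultures, so the p-values reflect the spread among these libraries.

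Libraries held 26325627 to 76077813 counted read pairs. *Rara* was at 104 and 127 CPM in WT 1 and WT 2 and at 62.1 and 93.2 CPM in ∆RaraCD11c cells, where all exons and not the deleted one alone were counted, and its change of -0.57 log2 units had adjusted p = 0.0521 by edgeR. The langerin gene *Cd207* was at 18.5 and 19.8 CPM in WT 1 and WT 2, at 70.6 and 97.7 CPM in Control, at 0.541 and 0.259 CPM in ∆RaraCD11c cells and at 0.0401 and 0.0377 CPM with RA. Of 6 LC markers, 4 were lower and 1 higher in either comparison. The summed CPM of 5 eosinophil markers was 46.2 to 67.0 in WT 1 and WT 2 against 182 to 304 in ∆RaraCD11c cells, and 4.27 to 10.4 in Control against 73.6 to 88.0 with RA. That of 7 B and plasma cell markers was 8.16 to 15.1, 15.1 to 29.1, 4.72 to 6.81 and 6.84 to 8.40 in the same order of groups. Of these lists 3 of 5 and 2 of 7 were called higher in ∆RaraCD11c cells and none lower, and with RA 2 of 5 and 1 of 7 were higher and 1 of the 7 (*Mzb1*) lower. The RA rise of the eosinophil sum came from *Ear1* and *Ear2* (4.29 log2 units), while *Prg2*, *Epx* and *Ccr3* had fitted changes of -1.20, -2.45 and -1.67, uncalled, and *Epx* was at most at 0.377 CPM with RA. In ∆RaraCD11c cells all 5 had fitted changes above 0. Other lists were lower with RA. The sum of 5 CD11c and dendritic cell markers was 21983 to 23787 CPM in Control against 1933 to 2602 with RA (5 of 5 called lower). Most of it came from *Cd74* (14546 and 13606 CPM in Control, 1082 and 1551 with RA) and *H2-Ab1* (8118 and 7209, 341 and 466). *Itgax*, the gene of CD11c, was at 1093 and 1132 CPM in Control and at 504 and 575 CPM with RA. The sum of 6 neutrophil markers was 790 to 1103 CPM against 159 to 196 (2 lower). That of 4 plasmacytoid dendritic cell markers was 67.7 to 128 against 32.0 to 35.4 (3 of 3 tested lower). That of 6 mast cell and basophil markers was 74.9 to 76.7 against 11.2 to 15.2 (2 of 3 tested lower). In ∆RaraCD11c cells 2, 0, 1 and 1 of these lists' genes were called lower and none higher. The neutrophil sum varied widely there, from 524 to 2233 CPM in WT 1 and WT 2 and from 681 to 2439 CPM in ∆RaraCD11c cells. *Jchain* of plasma cells was at 0.503 and 0.400 CPM in WT 1 and WT 2 and 7.57 and 3.57 CPM in ∆RaraCD11c cells, where *Mzb1*, also of plasma cells, was at 0.748 and 0.195 CPM. Reads in 3' UTRs made up 46.5 to 48.5% of the ∆RaraCD11c libraries and 30.8 to 39.0% of the others. *Xist*, expressed from the inactive X of females, was at 91.1 and 253 CPM in WT 1 and WT 2 and at most 1.08 CPM elsewhere. The part of these differences in the results below was not tested.

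The promoters of the list were read for its known elements. ERSE, the element through which ATF6 and Xbp1 are known to act, reads CCAAT, then any 9 bases, then CCACG. Windows from 250 bases before to 50 bases after the RefSeq gene start were available for 32 of the 35 genes (all but *Manf*, *Hyou1* and *Atf6*) and were searched on both strands. ERSE stood in 9 of the 32, against 37 of 27025 genes in all (0.137%). The list was made of known genes of this response, so this contrast follows from its choice. The 9 were *Hspa5*, *Hsp90b1* (with 2 copies), *Calr*, *Canx*, *Pdia6*, *Dnajc3* and *Creld2* among the chaperones and *Syvn1* and *Derl3* among the degradation genes. The related ERSE-II (ATTGG, any base, CCACG) stood in *Dnajb11* and *Herpud1*, and in 12 of the 27025 genes (0.0444%). UPRE (TGACGTGG, in 0.714% of all windows) and CARE, the composite C/EBP-ATF element (TGATGNAAT, in 1.08%), were in none of the 32 windows, which says only that these letters are not in them. The stretches shown are *Hspa5*, the textbook target, and those genes with a match whose level changed with RA. They come from RefSeq on GRCm38.p6, are read 5′ to 3′ along the gene, and have ERSE or ERSE-II in capitals. In *Derl3* the match is on the opposite strand, so it reads CGTGG, 9 bases, ATTGG, and in *Herpud1* the capitals are ERSE-II. The stretches lie at chr2:34772005-34772063 (plus strand, *Hspa5*), chr11:50325780-50325838 (minus, *Canx*), chr14:118937807-118937865 (plus, *Dnajc3*), chr19:6046512-6046570 (plus, *Syvn1*), chr10:75893222-75893280 (plus, *Derl3*) and chr8:94386357-94386407 (plus, *Herpud1*).
Hspa5: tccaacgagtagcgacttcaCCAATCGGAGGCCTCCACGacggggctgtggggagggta
Canx: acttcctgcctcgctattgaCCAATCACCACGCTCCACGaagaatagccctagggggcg
Dnajc3: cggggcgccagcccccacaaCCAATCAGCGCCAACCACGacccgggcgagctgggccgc
Syvn1: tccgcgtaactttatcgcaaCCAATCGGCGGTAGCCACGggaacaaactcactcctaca
Derl3: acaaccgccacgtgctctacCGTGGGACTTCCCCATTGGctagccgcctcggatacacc
Herpud1: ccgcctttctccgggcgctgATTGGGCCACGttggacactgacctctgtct

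The 35 genes took 0.877 to 1.14% of all counts in a library, most of it from the chaperones. On a scale per length of exon (RPKM, recomputed from the counts), *Calr* had the highest mean over the 8 libraries at 645, followed by *Hsp90b1* at 432, *Pdia3* at 409 and *Hspa5* at 408. These last 3 overlapped each other in range. *Sec61b* was at 345, *Xbp1* at 258 and *Atf4* at 199. The sensors were far lower, with *Eif2ak3* at 10.9 RPKM, *Atf6* at 10.2 and *Ern1* at 2.85. *Chac1* at 1.69 and *Derl3* at 1.55 closed the list. Thus the transducer *Xbp1* was among the higher genes and its activator *Ern1* among the lowest.

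**Figure D1:**
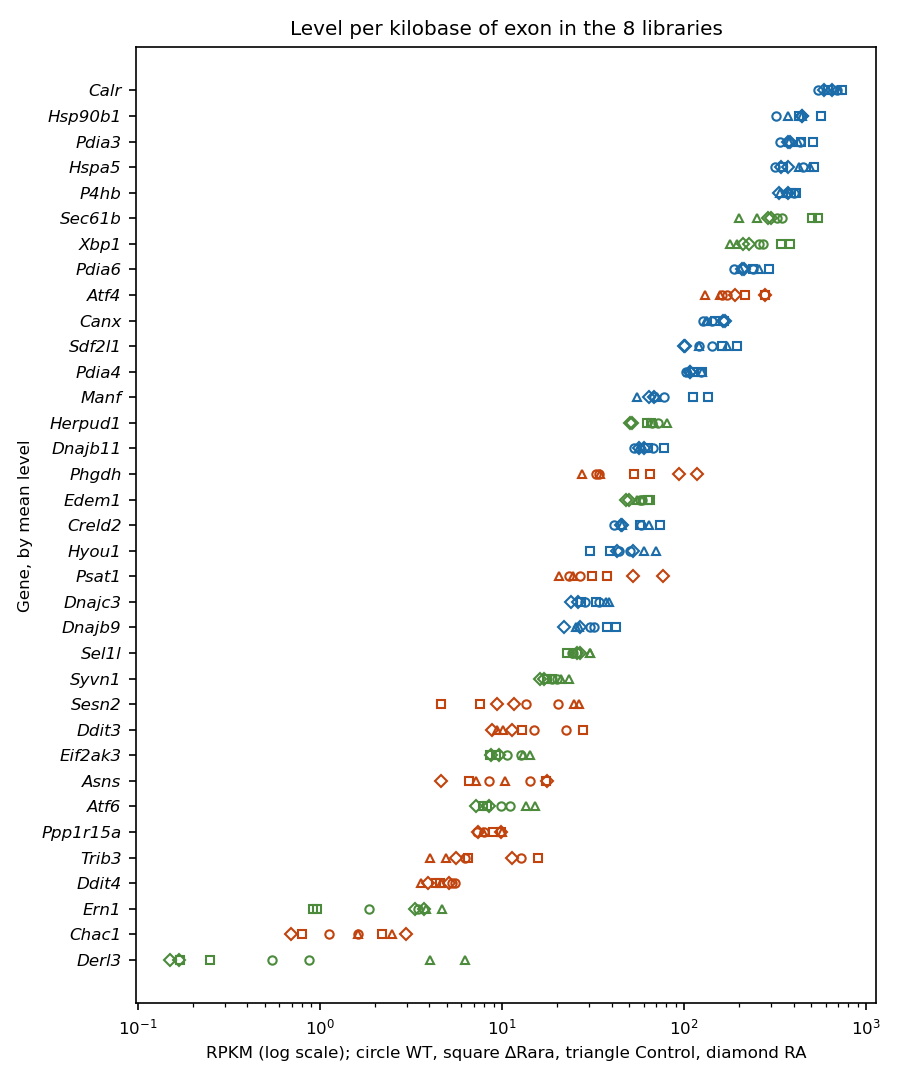
Level of each of the 35 genes in RPKM (log axis) in the 8 libraries, by marker shape for the group and by colour for the role (blue chaperones, orange Atf4 and Ddit3 arm, green sensors, degradation and translocation). Genes are ordered by their mean over the 8 libraries, from 645 for *Calr* to 1.55 for *Derl3*.

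In ∆RaraCD11c cells 4 of the 35 genes rose (*Phgdh*, *Manf*, *Sec61b*, *Xbp1*) and 5 fell (*Derl3*, *Ern1*, *Sesn2*, *Eif2ak3*, *Atf6*). Calls rest on edgeR's quasi-likelihood test with adjustment over all 12424 genes and a threshold of 0.05, and log2 fold changes are given with standard errors (SE). Of all genes, 13.6% were called higher and 13.3% lower, so the list as a whole was called about as often as other genes. Its classes differed. Called were 6.67% of the chaperones, 20% of the Atf4 and Ddit3 arm and 60% of the sensor, degradation and translocation genes. With RA, 5 rose (*Phgdh*, *Psat1*, *Atf4*, *Sec61b*, *Canx*) and 8 fell (*Derl3*, *Sesn2*, *Atf6*, *Dnajc3*, *Eif2ak3*, *Herpud1*, *Sdf2l1*, *Syvn1*), against 15.2% of all genes higher and 19.3% lower, again near the background. The median log2 change of the list was 0.15 in ∆RaraCD11c cells and -0.09 with RA, beside 0.00 and -0.01 over all genes. With scaling by library totals the median of all genes in ∆RaraCD11c cells moved to -0.14 and the higher genes made up 26.1% in place of 50.4% of calls, but the list's median stayed 0.14 above that of all genes. Both comparisons called *Phgdh* and *Sec61b* higher (7.41% of all genes were higher in both) and *Atf6*, *Eif2ak3*, *Sesn2* and *Derl3* lower (8.04% of all genes were lower in both). No member was called in opposite directions, and 19 were called in neither comparison. In the test of the RA effect minus the ∆RaraCD11c effect, *Phgdh* was higher and *Derl3* lower, against 1.86% and 4.23% of all genes. DESeq2 called 6 higher and 6 lower in ∆RaraCD11c cells, 5 and 10 with RA, and 3 and 4 in the difference. Higher and lower calls in ∆RaraCD11c cells numbered 0 and 3 without WT replicate 2, 2 and 3 without ∆RaraCD11c replicate 1, 3 and 2 without ∆RaraCD11c replicate 2, 4 and 3 without either Control library and 7 and 5 without either RA library. Those with RA numbered 3 and 6 without Control replicate 1, 2 and 7 without Control replicate 2, 2 and 5 without RA replicate 1 and 3 and 7 without RA replicate 2. In all of these bulk libraries, fewer cells of one type and less RNA per cell cannot be told apart.

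**Figure D2:**
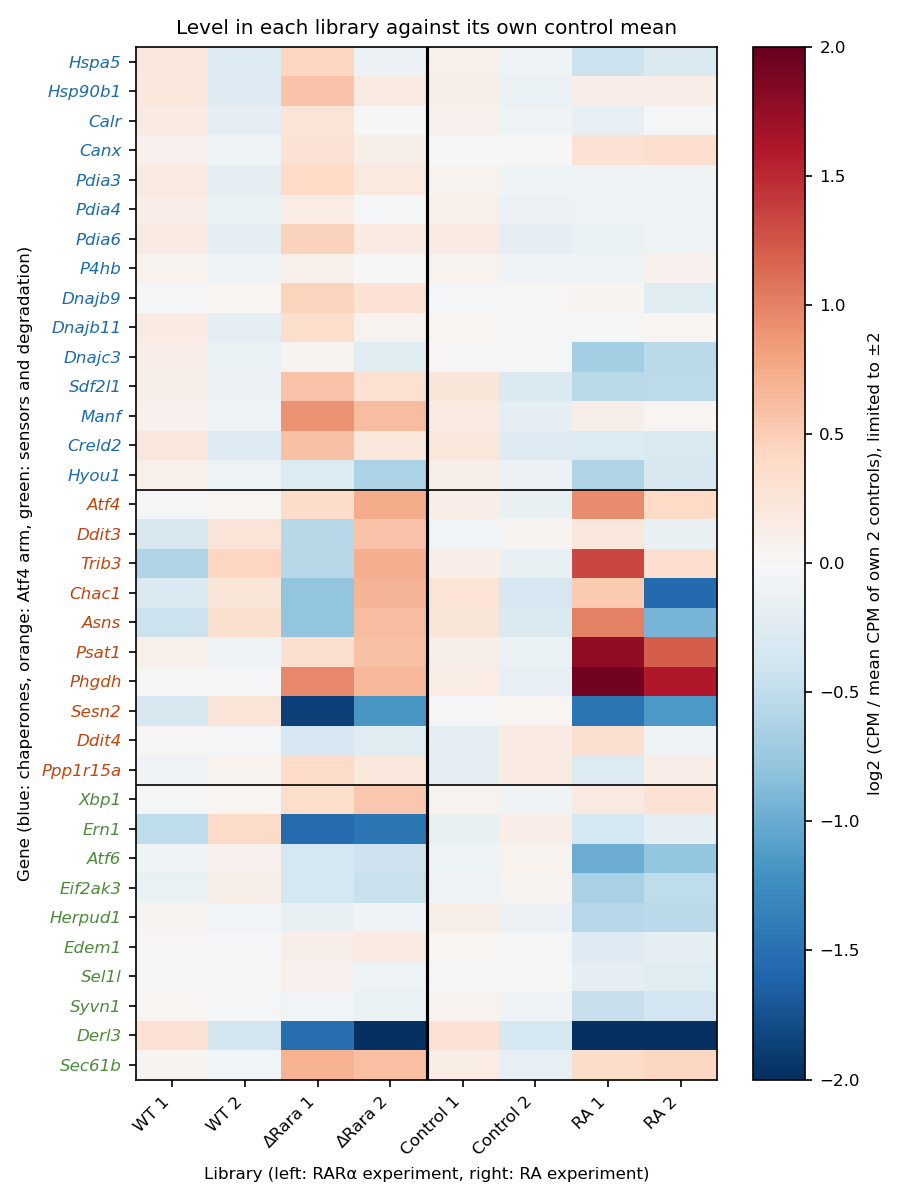
Level of each gene in each library as log2 of its CPM over the mean CPM of the 2 control libraries of the same experiment (colour scale limited to 2 in size; red higher, blue lower). *Phgdh* and *Psat1* are red and *Sesn2* and *Derl3* blue in both treated groups, while *Asns*, *Chac1* and *Trib3* differ in colour or shade between libraries of the same group.

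**Figure D3:**
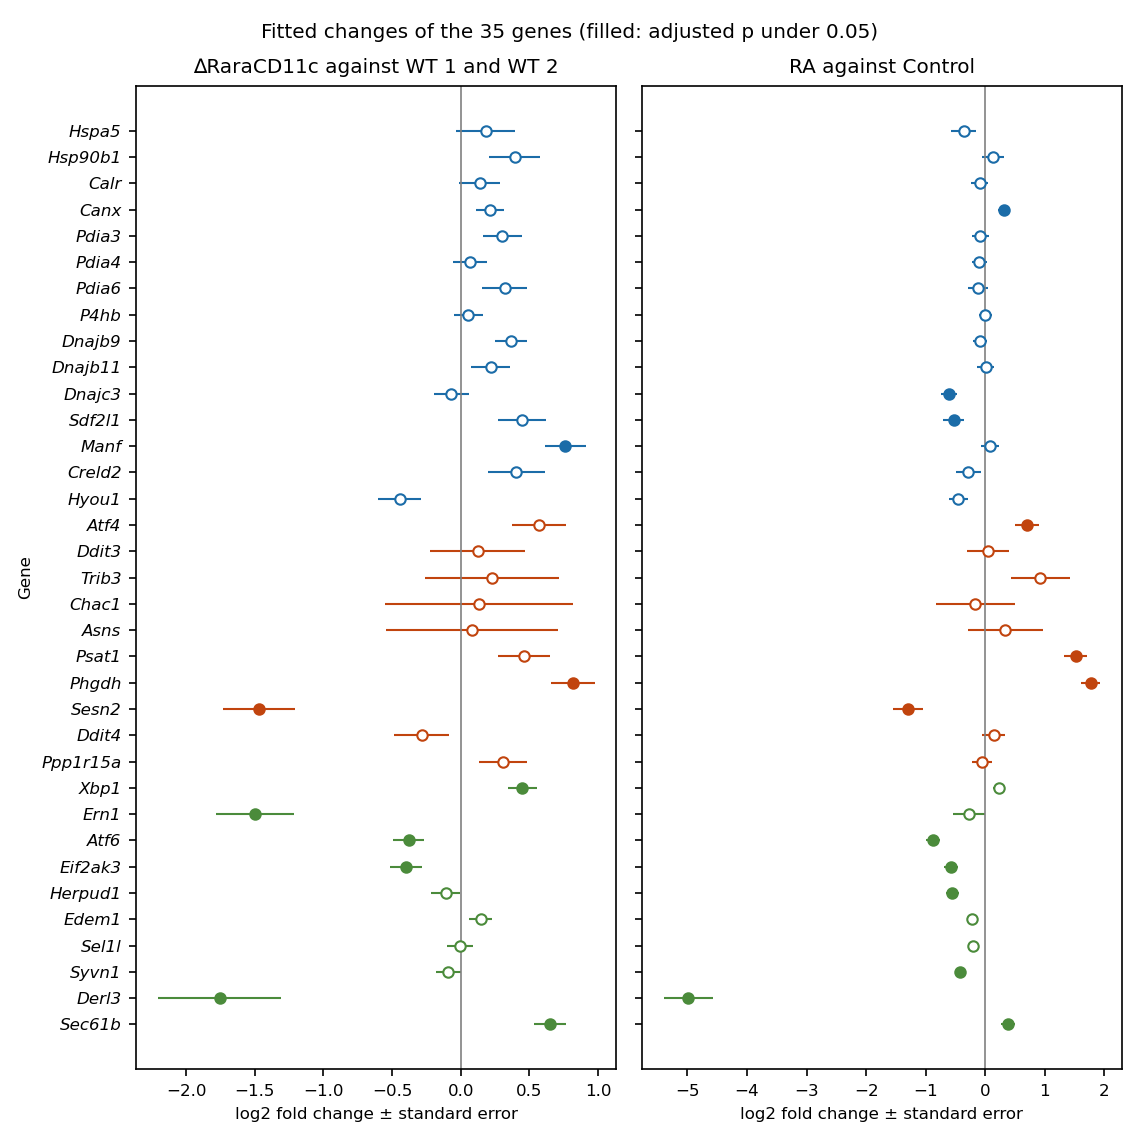
Fitted log2 fold change with its SE for the 35 genes in ∆RaraCD11c against WT 1 and WT 2 (left) and RA against Control (right), n = 2 libraries a group, filled where the adjusted p was under 0.05. The horizontal scales differ. The 15 chaperones (blue) run from -0.45 to 0.76 on the left and from -0.61 to 0.31 on the right. *Derl3* at -4.99 with RA is the farthest from 0.

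Most chaperones did not pass the test in either comparison, nor did most of all genes (26.9% called in ∆RaraCD11c cells, 34.5% with RA). In ∆RaraCD11c cells 1 of 15 (6.67%) was called (*Manf*, higher), although 13 of 15 had a fitted change above 0, with a median of 0.22 log2 units. With RA 1 was higher (*Canx*) and 2 were lower (*Dnajc3*, *Sdf2l1*), that is 20% called, with a median of -0.09. In the difference between the effects none was called, with 5 lower at an unadjusted p under 0.05 and 2 lower by DESeq2, and 14 of 15 had a fitted value below 0 (median -0.39). The ∆RaraCD11c median was 0.13 without WT replicate 2 and 0.07 without ∆RaraCD11c replicate 1. Summed over the 15 genes, CPM was 8414 and 6696 in WT 1 and WT 2 and 9673 and 7927 in ∆RaraCD11c cells. It was 8546 and 7472 in Control and 7381 and 7788 with RA. The sums overlapped in both comparisons, although each ∆RaraCD11c sum was above that of the WT library of the same number.

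*Hspa5* encodes BiP, the chief ER chaperone of the Hsp70 family, which also holds the sensors inactive. It was at 1174 and 827 CPM in WT 1 and WT 2, 1348 and 919 CPM in ∆RaraCD11c cells, 1283 and 1119 CPM in Control and 891 and 979.7 CPM with RA. The ∆RaraCD11c libraries overlapped their controls, although each was above the WT library of the same number. The RA libraries were below their controls. The log2 changes of 0.18 (SE 0.21, adjusted p = 0.554) and -0.36 (SE 0.21, adjusted p = 0.221) did not pass edgeR's test.

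*Manf* encodes a small ER protein, secreted under stress, that stabilizes BiP-bound clients. Its level was 171 and 150.2 CPM in WT 1 and WT 2 and 299 and 246 CPM in ∆RaraCD11c cells, without overlap, and 157, 122, 151 and 142 CPM in Control 1, Control 2, RA 1 and RA 2, with overlap. It rose in ∆RaraCD11c cells by 0.76 log2 units (SE 0.15, adjusted p = 0.00973 in edgeR), a fold of 1.70, and was at 0.07 with RA (adjusted p = 0.724). The call was lost without ∆RaraCD11c replicate 1 (0.56, adjusted p = 0.0619) and without WT replicate 2 (0.67, adjusted p = 0.0739).

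The chaperones called with RA act at different steps. *Canx* encodes calnexin, a membrane lectin that holds folding glycoproteins. It was at 575 and 568 CPM in Control and 699 and 718 CPM with RA, a log2 change of 0.31 (SE 0.10, adjusted p = 0.0458 in edgeR). *Dnajc3* encodes p58IPK, a cochaperone of BiP that was first known as an inhibitor of PERK-type kinases. It was at 202 and 194 CPM in Control and at 124 and 136 CPM with RA, and fell by 0.61 (SE 0.13, adjusted p = 0.00809). *Sdf2l1*, whose product works with the ER-resident DnaJ proteins, was at 191 and 133 CPM in Control and 111 and 113 CPM with RA, and fell by 0.53 (SE 0.17, adjusted p = 0.0481). In each of these the RA libraries lay outside the Control range. *Canx* lost its call without any 1 of the Control or RA libraries (0.29 to 0.33), against all 4 WT libraries (0.30) and with library totals (0.28). *Sdf2l1* lost its call without Control replicate 1 (-0.25), RA replicate 1 (-0.52), RA replicate 2 (-0.54) or either of WT 1 and WT 2 (-0.53). *Sdf2l1* was also uncalled against all 4 WT libraries (-0.45) and with the RA experiment fitted alone (-0.51). *Dnajc3* was uncalled without RA replicate 1 (-0.55).

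In ∆RaraCD11c cells *Canx*, *Dnajc3* and *Sdf2l1* had log2 changes of 0.21, -0.07 and 0.44, none of them called. The sign of *Sdf2l1* thus differed between the comparisons, but its difference of -0.97 (SE 0.25) had adjusted p = 0.0603 in edgeR and was called only without Control replicate 2 among the libraries left out (-1.21). The other 11 chaperones ran from -0.45 (*Hyou1*, an Hsp170 partner of BiP) to 0.41 (*Creld2*) in ∆RaraCD11c cells and from -0.45 (*Hyou1*) to 0.13 (*Hsp90b1*, the ER Hsp90) with RA. *Hyou1* was lower without overlap in both comparisons, at 225 and 196 against 174 and 135 CPM, and at 313 and 266 against 191 and 233 CPM. Its adjusted p was 0.0716 and 0.0591, and the ∆RaraCD11c change depended on the setting. It passed at -0.69 without ∆RaraCD11c replicate 1, at -0.70 against all 4 WT libraries and at -0.59 with scaling by library totals, and was at -0.32 without ∆RaraCD11c replicate 2. With a trend in exon length removed it was at -0.29 (adjusted p = 0.242 in edgeR), and with trends in GC content and in coding and 3' UTR length removed at -0.11 (adjusted p = 0.668). *Dnajb9* (ERdj4), a widely used readout of Xbp1 activity, was at 56.5 and 59.6 CPM in WT 1 and WT 2 and at 78.8 and 70.8 CPM in ∆RaraCD11c cells (0.37, adjusted p = 0.0515). It passed without either RA library (0.37) and against all 4 WT libraries (0.49), and was at 0.24 without ∆RaraCD11c replicate 1, at 0.22 with library totals and at 0.04 (adjusted p = 0.827 in edgeR) with trends in GC content and in coding and 3' UTR length removed. With RA *Dnajb9* was at -0.09. The disulphide isomerases *P4hb*, *Pdia3*, *Pdia4* and *Pdia6* stayed within 0.06 to 0.32 and within -0.12 to 0.00 log2 units, none called.

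With RA, called genes of the Atf4 arm were *Atf4* and those for serine synthesis, which rose, and *Sesn2*, which fell. Of 10, 1 rose and 1 fell in ∆RaraCD11c cells, and 3 rose and 1 fell with RA. Shares of all genes called higher and lower were 13.6% and 13.3%, and 15.2% and 19.3% with RA. The median changes were 0.18 and 0.24.

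*Phgdh* encodes the first enzyme of serine synthesis from a glycolytic intermediate. It was at 64.1 and 61.4 CPM in WT 1 and WT 2 and 121.5 and 99.5 CPM in ∆RaraCD11c cells, and at 64.4 and 51.8 CPM in Control and 220.5 and 175 CPM with RA. The treated libraries were above every WT library in both comparisons. The log2 change was 0.82 in ∆RaraCD11c cells (SE 0.16, adjusted p = 0.00956 in edgeR; 1.76-fold) and 1.77 with RA (SE 0.16, adjusted p = 0.000144; 3.41-fold). The RA effect was the larger by 0.95 (SE 0.22, adjusted p = 0.0465 in edgeR). The ∆RaraCD11c call was lost without ∆RaraCD11c replicate 1 (0.61, adjusted p = 0.0621) or WT replicate 2 (0.79, adjusted p = 0.0666). The call of the difference was lost without WT replicate 1 (0.97), WT replicate 2 (0.98), ∆RaraCD11c replicate 2 (0.86), Control replicate 1 (1.12), Control replicate 2 (0.80) or RA replicate 1 (0.78).

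*Psat1* encodes the next enzyme of the same pathway. It was at 67.2 and 58.3 CPM in WT 1 and WT 2, 78.3 and 93.96 CPM in ∆RaraCD11c cells, 61.0 and 51.5 CPM in Control and 192 and 131 CPM with RA, with no overlap in either comparison. It rose with RA by 1.52 log2 units (SE 0.19, adjusted p = 0.00074 in edgeR; 2.87-fold), under every alternative run. In ∆RaraCD11c cells its change was 0.46 (adjusted p = 0.108), and the difference between the effects was 1.06 (SE 0.27, adjusted p = 0.0597).

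*Atf4* encodes the transcription factor of this arm, which activates genes of amino acid supply. It was at 281 and 297 CPM in WT 1 and WT 2, 375 and 484 CPM in ∆RaraCD11c cells, 274 and 226 CPM in Control and 483 and 329 CPM with RA. Both treated groups lay above their controls. The log2 change passed edgeR's test with RA (0.70, SE 0.20, adjusted p = 0.0279) and not in ∆RaraCD11c cells (0.57, SE 0.20, adjusted p = 0.0656), and the difference of 0.13 (SE 0.28) was uncalled. The RA call was lost without RA replicate 1 (0.39), Control replicate 1 (0.84) or Control replicate 2 (0.56). The ∆RaraCD11c change was called without either RA library (0.57) and against all 4 WT libraries (0.67).

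*Sesn2*, a stress-induced inhibitor of mTORC1 that senses leucine, moved the other way. It was at 36.1 and 54.1 CPM in WT 1 and WT 2 and 12.3 and 20.2 CPM in ∆RaraCD11c cells, and at 66.3 and 70.7 CPM in Control and 24.9 and 31.0 CPM with RA. All 4 treated libraries were below all 4 WT libraries. It fell by 1.47 log2 units in ∆RaraCD11c cells (SE 0.26, adjusted p = 0.0069 in edgeR) and by 1.30 with RA (SE 0.25, adjusted p = 0.00593). Both calls held under every alternative run, from -1.92 to -1.14 and from -1.46 to -1.02.

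*Ddit3*, encoding CHOP, the factor tied to cell death under lasting stress, was at 13.1 and 19.6 CPM in WT 1 and WT 2 and 11.2 and 24.4 CPM in ∆RaraCD11c cells, and at 8.16 and 8.83 CPM in Control and 9.90 and 7.67 CPM with RA. The groups overlapped in both comparisons, and the changes of 0.12 and 0.05 (adjusted p = 0.813 and 0.926 in edgeR) were smaller than their SE of 0.34 and 0.35. *Ddit4*, an mTORC1 inhibitor, and *Ppp1r15a* (GADD34), which reverses the translational block, ran from 6.04 to 9.35 CPM and from 17.0 to 23.4 CPM over the 8 libraries. Neither was called.

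The remaining targets of this arm varied widely between libraries in some groups. *Asns*, encoding asparagine synthetase, was at 16.3 and 27.5 CPM in WT 1 and WT 2, 12.6 and 33.6 CPM in ∆RaraCD11c cells, 20.0 and 13.8 CPM in Control and 34.0 and 8.90 CPM with RA. RA replicate 1 was 3.82 times RA replicate 2, and ∆RaraCD11c replicate 2 was 2.66 times replicate 1. *Chac1*, which degrades glutathione, showed ratios of 4.25 and 2.78 between the same libraries, and *Trib3*, a pseudokinase induced by Atf4 and CHOP, 2.01 and 2.42. In ∆RaraCD11c cells the libraries of 4 of the 35 genes (*Asns*, *Chac1*, *Ddit3*, *Trib3*) differed by 2-fold or more, beside 7.69% of all tested genes. With RA it was 3 (the same without *Ddit3*) beside 4.16%, in WT 1 and WT 2 only *Trib3* beside 3.04%, and in Control none beside 2.39%. For *Asns*, *Chac1* and *Trib3* the standard errors were 0.49 to 0.68 log2 units. *Trib3* was at 10.1 and 8.26 CPM in Control and 23.2 and 11.5 CPM with RA, without overlap. Its change of 0.92 (SE 0.50) was still uncalled (adjusted p = 0.184 in edgeR). A lack of overlap between groups of 2 libraries thus did not by itself bring a call. *Psat1* and *Atf4* differed by 1.47-fold between the RA libraries, also with RA replicate 1 the higher.

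**Figure D4:**
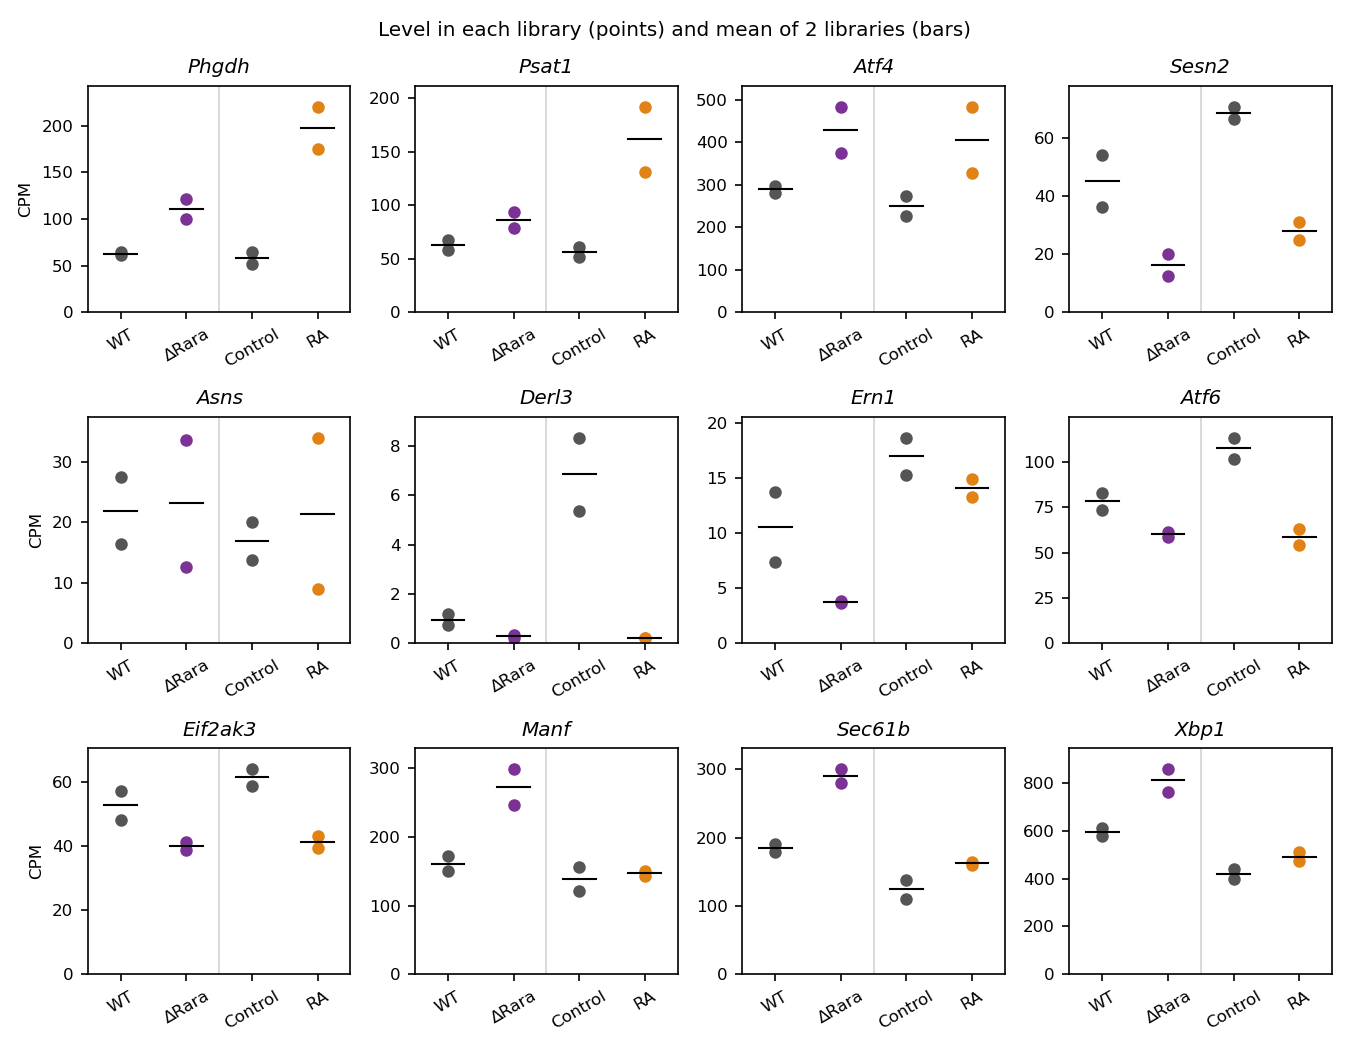
CPM of 12 of the genes in each library (points) with the mean of the 2 libraries of a group (bars); the grey line parts the ∆RaraCD11c experiment from the RA experiment. *Sesn2* is below all 4 WT libraries in every treated library, *Ern1* only in the ∆RaraCD11c libraries, and the points of *Asns* spread widest within the RA group (34.0 and 8.90 CPM).

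Of the 10 sensor, degradation and translocation genes, 2 rose and 4 fell in ∆RaraCD11c cells, and 1 rose and 5 fell with RA. That was 60% called in both, beside 26.9% and 34.5% of all genes, with medians of -0.10 and -0.35. With the exon length trend removed it was 2 higher and 2 lower, and 0 higher and 5 lower with RA. The class was not tested as a set. Among the sensors, *Atf6* and *Eif2ak3* were lower in both comparisons, *Ern1* only passed in ∆RaraCD11c cells, and *Xbp1* moved up there. *Atf6*, whose product is cut in the Golgi to release a transcription factor, was at 73.8 and 83.0 CPM in WT 1 and WT 2 and 61.6 and 58.9 CPM in ∆RaraCD11c cells, and at 102 and 114 CPM in Control and 54.1 and 63.3 CPM with RA. *Eif2ak3*, the PERK kinase that phosphorylates eIF2α, was at 48.1, 57.4, 41.5 and 38.7 CPM and at 59.0, 64.3, 39.4 and 43.3 CPM in the same order. Neither gene's groups overlapped.

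*Atf6* fell by 0.88 log2 units with RA (SE 0.11, adjusted p = 0.000858 in edgeR) and *Eif2ak3* fell by 0.58 (SE 0.12, adjusted p = 0.00656), the latter uncalled without Control replicate 2 (-0.51, adjusted p = 0.0561). In ∆RaraCD11c cells they fell by 0.38 (adjusted p = 0.0424) and 0.40 (adjusted p = 0.038). Both ∆RaraCD11c calls were lost without ∆RaraCD11c replicate 1 (-0.46 and -0.50), ∆RaraCD11c replicate 2 (-0.39 for both), WT replicate 2 (-0.29 and -0.26), Control replicate 1 or 2 (-0.38 and -0.40), and with ∆RaraCD11c and WT fitted alone (-0.40 and -0.41).

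*Ern1* was at 7.41 and 13.8 CPM in WT 1 and WT 2 and at 3.66 and 3.86 CPM in ∆RaraCD11c cells, without overlap. In Control it was at 15.3 and 18.7 CPM and with RA at 13.3 and 14.9 CPM, just below. It fell in ∆RaraCD11c cells by 1.50 log2 units (SE 0.29, adjusted p = 0.00915 in edgeR), a fold of 0.354, and passed under every alternative run, at -0.98 without WT replicate 2 and -1.92 without WT replicate 1. With RA the change was -0.27 (SE 0.26, adjusted p = 0.456). The difference between the effects was 1.23 (SE 0.39, adjusted p = 0.106) and passed without WT replicate 1 (1.65), so a difference between the comparisons was not established.

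*Xbp1*, whose RNA Ire1α splices, was at 579 and 609.9 CPM in WT 1 and WT 2 and 762 and 859.9 CPM in ∆RaraCD11c cells, and at 438 and 399.6 CPM in Control and 473 and 512 CPM with RA. The treated libraries were above their own controls, although the RA libraries were below WT 1 and WT 2. It rose in ∆RaraCD11c cells by 0.45 log2 units (SE 0.10, adjusted p = 0.0174 in edgeR) and was at 0.23 with RA (adjusted p = 0.116). The call was lost without WT replicate 1 (0.36), WT replicate 2 (0.49) or ∆RaraCD11c replicate 2 (0.31), and with scaling by library totals (0.30). Counts per gene do not separate spliced from unspliced *Xbp1*.

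*Derl3*, one of the Derlin genes of ER-associated degradation and known from secretory cells, had the largest fitted decrease of the list. Its raw counts were 51 and 55 in WT 1 and WT 2, 8 and 7 in ∆RaraCD11c cells, 422 and 282 in Control and 10 and 12 with RA, that is 1.17, 0.733, 0.333, 0.227, 8.33, 5.36, 0.200 and 0.226 CPM. Treated libraries were at about the same low level, and the control pairs differed more from each other than WT 1 and WT 2 did from the ∆RaraCD11c libraries. *Derl3* fell by 4.99 log2 units with RA (SE 0.42, adjusted p = 9.38e-05 in edgeR), to 0.0316 times the Control level, and by 1.76 in ∆RaraCD11c cells (SE 0.45, adjusted p = 0.0244). The RA call held under each of the 20 alternatives that gave a value. Against all 4 WT libraries the ∆RaraCD11c change was -3.80. It was uncalled without WT replicate 1 (-1.46), ∆RaraCD11c replicate 1 (-2.08) or ∆RaraCD11c replicate 2 (-1.53), and with that experiment fitted alone (-1.77). The difference of -3.23 (SE 0.64, adjusted p = 0.0302) was called without WT replicate 1 and uncalled without any other 1 library, from -3.51 without Control replicate 2 to -2.88 without Control replicate 1.

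Of the other degradation genes, *Herpud1*, which organizes the ubiquitin ligase complex of the ER membrane, and *Syvn1*, the ligase Hrd1, fell with RA. *Herpud1* was at 152 and 128 CPM in Control and 94.7 and 96.4 CPM with RA, a log2 change of -0.55 (SE 0.10, adjusted p = 0.00514 in edgeR), called under every alternative run. *Syvn1* was at 85.4 and 77.2 CPM in Control and 59.1 and 62.1 CPM with RA, a change of -0.42 (SE 0.09, adjusted p = 0.00972 in edgeR). It was uncalled without Control replicate 1 (-0.35) or RA replicate 1 (-0.39), and against all 4 WT libraries (-0.33). In ∆RaraCD11c cells they were at -0.11 and -0.09, uncalled. *Edem1*, which trims mannose from misfolded glycoproteins, and *Sel1l*, the partner of Hrd1, were called in neither, at 0.15 and -0.01 in ∆RaraCD11c cells and -0.23 and -0.20 with RA.

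*Sec61b* encodes a subunit of the channel through which proteins enter the ER. It was at 191 and 179 CPM in WT 1 and WT 2 and 301 and 279.7 CPM in ∆RaraCD11c cells, and at 138 and 110.5 CPM in Control and 160.5 and 165 CPM with RA. Treated libraries were above their own controls, but the RA libraries were below WT 1 and WT 2. It rose by 0.65 log2 units in ∆RaraCD11c cells (SE 0.12, adjusted p = 0.00758 in edgeR) and by 0.39 with RA (SE 0.12, adjusted p = 0.0365). The first call was lost without WT replicate 2 (0.60, adjusted p = 0.0603). The second was lost without Control replicate 2 (0.23), RA replicate 1 (0.41) or RA replicate 2 (0.37). It was also lost against all 4 WT libraries (0.07) and with scaling by library totals (0.36).

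Gene length moved with both comparisons. Of the 2306 genes with the shortest coding sequence, 848 were called higher and 116 lower in ∆RaraCD11c cells, and of the 2305 with the longest, 74 higher and 651 lower. With RA it was 533 higher and 370 lower of the shortest, and 213 higher and 627 lower of the longest. The median log2 change went from 0.32 to -0.25 in ∆RaraCD11c cells and from 0.11 to -0.16 with RA. Of the 35 genes, 8 were among the shortest and 3 among the longest. With trends in GC content and in the length of coding sequence and 3' UTR removed, *Atf6* and *Eif2ak3* were both at -0.12 in ∆RaraCD11c cells and no longer called, while *Edem1* was called at 0.39. *Manf*, *Sec61b*, *Xbp1*, *Phgdh*, *Sesn2*, *Ern1* and *Derl3* kept their calls there. For *Sec61b* that removal used a transcript with 421 coding bases and a 3' UTR length of 0, so its kept call is uncertain. With a trend in exon length alone removed, *Sec61b* was at 0.15 in either comparison and uncalled, *Atf6* and *Eif2ak3* were at -0.16 and -0.23 and uncalled, and *Canx* and *Edem1* were called at 0.37 and 0.33 in ∆RaraCD11c cells. The RA changes of *Atf6* and *Eif2ak3* were called with either trend removed.

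**Figure D5:**
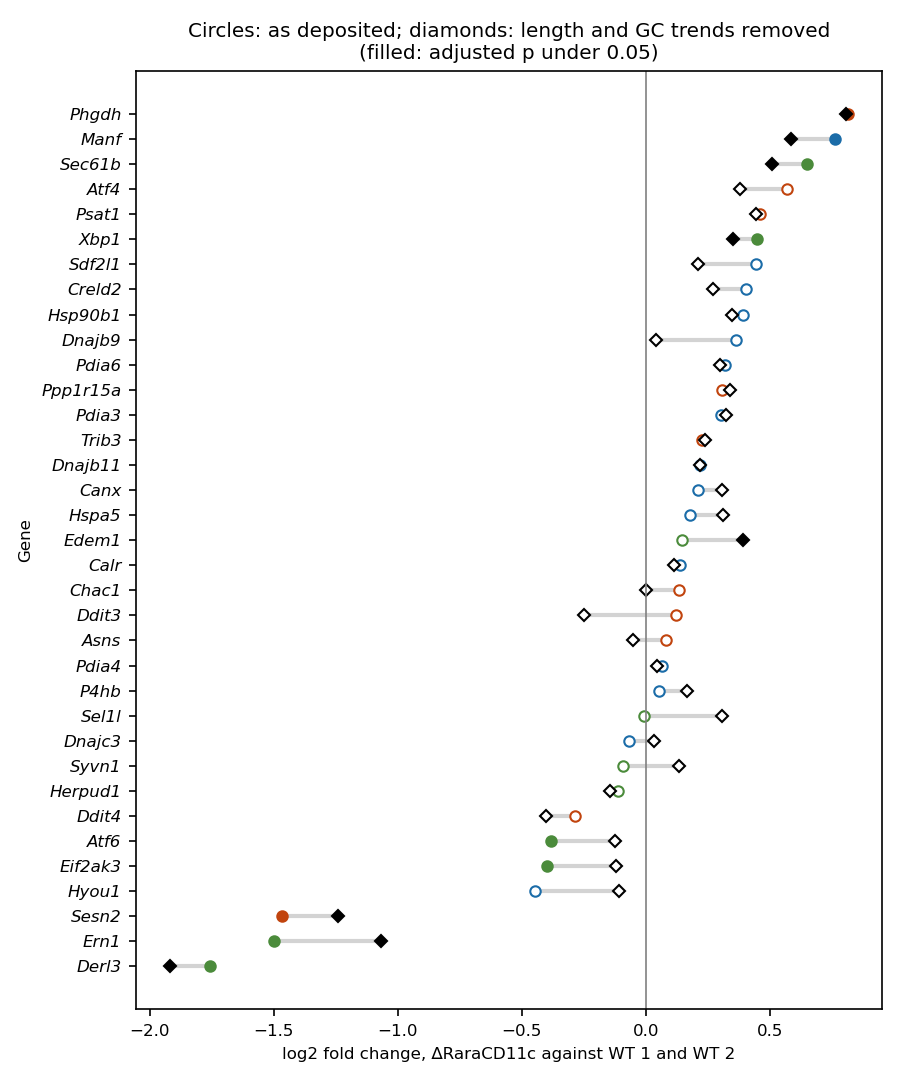
Log2 fold change of each gene in ∆RaraCD11c against WT 1 and WT 2 from the counts as deposited (circles) and after trends in GC content and in coding and 3' UTR length were removed (black diamonds), filled where the adjusted p was under 0.05. *Atf6* and *Eif2ak3* move to -0.12 and lose their fill, and *Sesn2*, *Ern1* and *Derl3* stay at the far left.

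The calls of the 9 genes with ERSE were set beside the promoter matches. In ∆RaraCD11c cells 1 of the 9 fell (*Derl3*) and 8 were uncalled. With RA 1 rose (*Canx*), 3 fell (*Dnajc3*, *Syvn1*, *Derl3*) and 5 were uncalled, with a median of -0.29 log2 units. Shares of all genes called higher and lower were 13.6% and 13.3% in ∆RaraCD11c cells, and 15.2% and 19.3% with RA. Counts from 9 genes cannot show whether genes with ERSE moved together. Of the ERSE-II genes, *Herpud1* fell with RA and *Dnajb11* was at 0.00.

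Further genes of the same pathways, taken from whole lists, were set beside the 35. Among all genes, 13.6% were called higher and 13.3% lower in ∆RaraCD11c cells, and 15.2% and 19.3% with RA. In the difference it was 1.86% and 4.23%. Translocation and signal peptide genes were called higher in ∆RaraCD11c cells in 9 of 20 and lower in 1, among them *Sec11c* of the signal peptidase (0.81, adjusted p = 0.00424 in edgeR), *Srp9* of the signal recognition particle (0.69) and *Ssr4* of the translocon (0.58). With RA none of the 20 was called, with 1 higher and 1 lower both at an unadjusted p under 0.05 and by DESeq2. The difference was called for *Ssr4* (-0.62, adjusted p = 0.0374) and *Srp14* (-0.55, adjusted p = 0.0478), both lower. Their median change in ∆RaraCD11c cells was 0.30, and with the trends in length and GC content removed it was 0.06, with 2 higher and 1 lower. Without WT replicate 2, 5 were higher and 0 lower.

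Of 20 other ER chaperones and folding enzymes, 5 rose and 5 fell in ∆RaraCD11c cells, and 1 rose and 7 fell with RA. The first pair was 25% and 25%, beside 13.6% and 13.3% of all genes. The pair with RA was 5% and 35%, beside 15.2% and 19.3%. *Qsox1*, a sulphydryl oxidase, fell by 0.94 and by 0.92 log2 units. *Fkbp2* and *Erp29* rose in ∆RaraCD11c cells by 0.69 and 0.53. *Ero1l*, the oxidase that recharges disulphide isomerases, rose with RA by 0.92 (adjusted p = 0.000312 in edgeR), from 77.8 and 84.3 CPM to 159 and 148 CPM. Its difference between the effects of 0.80 also passed (adjusted p = 0.0181). With the trends removed, 2 rose and 3 fell in ∆RaraCD11c cells, and without WT replicate 2, 1 rose and 1 fell.

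Of 20 other degradation genes, 5 rose and 3 fell in ∆RaraCD11c cells, and 0 rose and 5 fell with RA (0 higher also at an unadjusted p under 0.05 and by DESeq2). The first pair was 25% and 15%, beside 13.6% and 13.3% of all genes. The pair with RA was 0% and 25%, beside 15.2% and 19.3%. *Edem2*, a relative of *Edem1*, fell with RA from 306 and 289 CPM to 136 and 141 CPM, by 1.10 log2 units (adjusted p = 0.000117 in edgeR), and more than in ∆RaraCD11c cells (difference -0.75, adjusted p = 0.0211). *Fam8a1*, a cofactor of Hrd1, fell in both (-0.97 and -1.12), and *Erlec1*, an ER lectin, rose in ∆RaraCD11c cells (0.47). With the trends removed, 2 rose and 3 fell in ∆RaraCD11c cells. Without WT replicate 2 none was called there, and without Control replicate 2 the number lower with RA was 2.

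Of 26 tested genes of amino acid supply and the Atf4 pathway, 8 rose and 3 fell with RA, and 2 rose and 0 fell in ∆RaraCD11c cells (1 lower at an unadjusted p under 0.05 and 1 by DESeq2). The pair with RA was 30.8% and 11.5%, beside 15.2% and 19.3% of all genes. The pair in ∆RaraCD11c cells was 7.69% and 0%, beside 13.6% and 13.3%. *Psph*, the last enzyme of serine synthesis, rose in both (0.80 and 0.66 log2 units), so all 3 genes of that route (*Phgdh*, *Psat1*, *Psph*) were called higher with RA. *Shmt2*, which turns serine into glycine in mitochondria, rose with RA (0.88, adjusted p = 0.00303 in edgeR), and the amino acid transporter *Slc7a5* fell (-0.74, adjusted p = 0.00617). Of 20 other sensors and factors, 1 rose and 1 fell in ∆RaraCD11c cells and 4 rose and 2 fell with RA. These were 5% and 5%, and 20% and 10%, beside the same shares of all genes. *Cebpb*, whose product pairs with Atf4 and CHOP, rose by 1.46 and 1.58, and *Mbtps1*, the protease that first cuts ATF6, fell in ∆RaraCD11c cells by 0.45. The 8 higher amino acid genes with RA were 3 without Control replicate 1, 1 without Control replicate 2 and 2 without RA replicate 1.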

How the data were processed

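Poly(A) RNA of CD11c+ LC-like cells was sequenced from both ends with a stranded kit. The authors aligned reads to mm10 with STAR and assigned uniquely mapped pairs to RefSeq genes with featureCounts, and the sources used here name no versions. The deposited counts are raw whole numbers. Deposited fold changes and p-values of the authors' own comparisons were not used.

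TMM library sizes, CPM and edgeR 4.0.16 quasi-likelihood tests (R 4.3.3) were computed on all 8 libraries in 4 column groups, with Benjamini-Hochberg adjustment over the 12424 genes above the CPM filter. An SE is the size of the log2 fold change over the root of F. Column names tie the Control columns to the WT group but not to WT 3 or WT 4. Scripts were tested on simulated data. Transcript features came from a GENCODE annotation of GRCm38, and natural-spline trends on them were removed as offsets. Counting error is largest for *Derl3*.

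Members and lists were chosen with earlier results of these data known. Every member is accounted for, with values per library for called members whose change was among the 10 largest of a comparison, for the sensors, and for *Hspa5*, *Atf4* and *Ddit3*. Values of *Canx*, *Syvn1*, *Hyou1*, *Dnajb9* and *Asns* were added after they were seen. From each other list, up to 3 called genes with the smallest p per comparison are named. Alternatives were DESeq2 1.42.0, other scalings, filters and thresholds, either experiment alone, all 4 WT libraries pooled, a replicate block, trend removal and each library left out.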

Additional observations from a re-analysis of the deposited data

How the results depend on the processing

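None of the 35 genes changed direction while called under any alternative. Of their 2132 values under the alternatives, 1989 stayed on their side of the threshold, 85 lost and 58 gained a call, and the cause was not tested. Counts of the 35 genes that moved by over 1.5 times were as follows. With ∆RaraCD11c cells, 7 were higher against all 4 WT libraries, with a replicate block or at an adjusted p under 0.1, and lower calls were 2 with that experiment fitted alone or at an adjusted p under 0.01, and 3 with the exon length trend or the coding length, 3' UTR length and GC trends removed. With RA, higher calls were 3 with library totals or all 4 WT libraries and 2 at an adjusted p under 0.01. In the difference, higher and lower calls were 3 and 4 by DESeq2, 2 and 2 with no filter, 0 and 0 at an adjusted p under 0.01, 2 and 3 at an adjusted p under 0.1, and 0 and 2 with the coding length, 3' UTR length and GC trends removed. Higher calls there were 2 with library totals, and lower calls were 0 with the filter of the study's methods taken to the letter and 3 with a replicate block. With 1 library left out, higher and lower calls ran from 0 to 7 and from 2 to 5 in ∆RaraCD11c cells, from 2 to 5 and from 5 to 9 with RA, and from 0 to 2 and from 0 to 1 in the difference.

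Over the further gene lists together, 34 genes were called in ∆RaraCD11c cells, 33 with RA and 7 in the difference. In ∆RaraCD11c cells it was 20 with that experiment fitted alone, 12 at an adjusted p under 0.01, 22 with the exon length trend removed and 20 with all 3 trends removed, and with RA 16 at an adjusted p under 0.01. In the difference it was 12 by DESeq2, 4 with upper-quartile scaling or library totals, 0 at an adjusted p under 0.01 and 11 at an adjusted p under 0.1. With 1 library left out these ran from 8 (without WT replicate 2) to 29, from 11 (without Control replicate 2) to 37, and from 0 to 4.

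No label says whether ∆RaraCD11c and WT libraries of the same number were made together. Some genes went with the number. *Ltf* of neutrophils was at 227 and 18.7 CPM in WT 1 and WT 2 and at 186 and 18.9 CPM in ∆RaraCD11c replicates 1 and 2. The reason was not tested. Over 12424 genes the same-numbered libraries deviated from their group means with r = 0.28, and with the replicate block 7 of the 35 genes were higher and 6 lower in ∆RaraCD11c cells. The RA comparison entered that fit without a block, since the labels number its libraries WT 3, WT 4, RA 1 and RA 2 and no source ties the Control columns to WT 3 or WT 4. With 2 libraries a group, a lone library left by leaving out the other is assumed to vary like the other groups.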

Other observations

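Few chaperones of the cytosol and mitochondria, which lie outside the ER, were called. Of 15 tested heat shock genes 2 rose and 0 fell in ∆RaraCD11c cells (0 lower also at an unadjusted p under 0.05 and by DESeq2), and 3 rose and 0 fell with RA (1 lower at an unadjusted p under 0.05, 0 by DESeq2). Higher calls thus made up 13.3% and 20% of the 15, near the 13.6% and 15.2% of all genes. Lower calls made up 0% in both, beside 13.3% and 19.3% of all genes. *Hspa9*, the mitochondrial Hsp70, was at 269 and 261 CPM in Control and 431 and 448 CPM with RA, a log2 change of 0.73 (adjusted p = 0.000443 in edgeR), and at 0.33 in ∆RaraCD11c cells (adjusted p = 0.0238). *Hsp90aa1*, the inducible cytosolic Hsp90, and *Hspd1*, the mitochondrial chaperonin, rose with RA by 0.84 and 0.81 on the log2 scale. *Hspe1*, the cochaperonin of *Hspd1*, rose in ∆RaraCD11c cells by 0.60. For none of the 15 genes was the difference between the effects called by edgeR, with 2 higher at an unadjusted p under 0.05 and 1 by DESeq2.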
